A study of Mus musculus with 15 samples.

Results

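The genes described here are 10 genes of sodium, magnesium and calcium handling in the distal nephron and of the kinase cascade that controls it, namely Slc12a3, Scnn1a, Scnn1b, Scnn1g, Klk1, Pvalb, Trpm6, Wnk1, Wnk4 and Stk39. They were taken by symbol from a table of 47069 genes, in which each of the 10 had 1 row. The study measured gene expression by RNA-Seq in single proximal tubules dissected by hand and labelled PTS2 (12 libraries) and in whole kidney (3 libraries), all from male C57BL/6 mice aged 2 months, with no treatment or altered gene named. The tubules fall into 3 sets named m1, m2 and m3, each with replicates numbered 1 to 4, and the labels do not say what the letter or the numbers stand for. By its title, the study asked how well genes selective for a cell type show in RNA from the whole organ.

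The distal convoluted tubule lies beyond the thick ascending limb and takes up sodium chloride through the thiazide-sensitive cotransporter NCC, the product of Slc12a3. Further down, in the connecting tubule and the principal cells of the collecting duct, sodium enters through the epithelial sodium channel ENaC, which is assembled from the products of Scnn1a, Scnn1b and Scnn1g and is raised by aldosterone. The kinases WNK1 and WNK4 phosphorylate SPAK, the product of Stk39, and its close relative OSR1, the product of Oxsr1, and these in turn phosphorylate and activate NCC. PTS2 stands in the renal literature for the S2 segment of the proximal tubule, which reabsorbs sodium by other transporters and is not a classical site of NCC or ENaC.

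Values are TPM, a unit that corrects for transcript length and sums to 1000000 in each library. TPM keep no record of depth, so the depth behind each value is unknown and no counting interval can be attached. In tubules, 10983 to 11511 genes reached 1 TPM, and in whole kidney 13236 to 13328. The 6 proximal tubule markers summed to between 13149 and 19013 TPM in the tubules and between 10140 and 11306 TPM in whole kidney. One tubule, replicate 3 of set m3, held 1441 TPM of 5 thick ascending limb markers, or 56.1% of the whole kidney mean, while the other 11 tubules held between 4.75 and 55.8 TPM. Means over all tubules and correlations of the members that rest on this library are given with and without it.

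The 10 genes separated into those that were close to 0 in the tubules and those that kept a measurable level. Every tubule was below every whole kidney library for each of the 10 genes, an ordering that 32% of the 12039 genes tested (mean of 1 TPM or more over the 15 libraries) also showed. Slc12a3, Scnn1b, Scnn1g, Pvalb and Trpm6 stayed at or under 0.51 TPM in every tubule. Wnk4, Wnk1, Scnn1a and Stk39 were at or above 0.90 TPM in every tubule, with Wnk4 the most abundant of these 4. Klk1 ranged over more than 2 orders of magnitude between tubules.

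**Figure D1:**
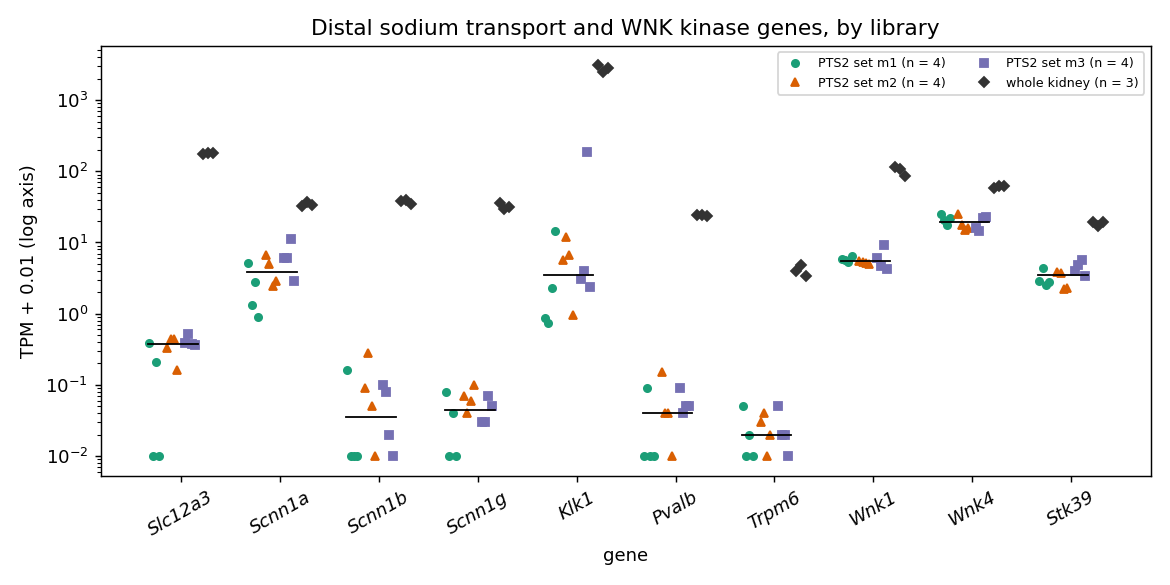
TPM + 0.01 of the 10 genes (log axis) in each of the 12 single PTS2 tubules, coloured by set, and in the 3 whole kidney libraries; the black line is the median of the 12 tubules. The tubules lie below whole kidney for every gene, Wnk4 sits between 14.5 and 25.2 TPM in the tubules, and 1 tubule of set m3 stands apart for Klk1, at 189 TPM.

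Wnk4 (ENSMUSG00000035112) encodes the WNK kinase best known for controlling NCC in the distal convoluted tubule. Its level was 58.0, 62.3 and 62.1 TPM in the 3 whole kidney libraries. In the tubules the lowest value was 14.5, the median 19.2 and the highest 25.2 TPM, so that no tubule lacked the transcript and no tubule reached the kidney level. Among the genes described here Wnk4 kept the largest share of its kidney level, with a tubule mean of 19.6 ± 3.88 TPM (SD, n = 12), or 32.2% of the kidney mean. The log2 difference between tubules and whole kidney was -1.61 ± 0.16 (SE, limma adjusted p = 2.95e-07), beside a median of -0.27 over all genes tested. This and the other log2 differences are on the log2(TPM + 1) scale, which understates changes of low genes. Wnk4 spread little between sets, with a mean of 21.4 ± 3.12 TPM for m1, of 18.5 ± 4.59 TPM for m2 and of 18.8 ± 4.18 TPM for m3 (SD, n = 4 for each). In the tubule with thick ascending limb signal Wnk4 was at 22.3 TPM, inside the range of the other 11 tubules. Gm11615, on the opposite strand, overlaps Wnk4 and averaged 0.178 TPM in the tubules.

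Wnk1 (ENSMUSG00000045962) encodes the related kinase, which the kidney makes both as a full-length form and as a shorter, kidney-specific form that lacks the kinase domain and is abundant in the distal convoluted tubule. The table gives 1 value per gene, so the forms are not separated. Whole kidney held 114, 106 and 85.0 TPM. In the tubules the lowest value was 4.20, the median 5.45 and the highest 9.20 TPM, the last in m3 replicate 3. The tubule mean was 5.71 ± 1.25 TPM (SD, n = 12), or 5.61% of the kidney mean, and without that library it was 5.39 ± 0.628 TPM (SD, n = 11). The log2 difference was -3.95 ± 0.16 (SE, limma adjusted p = 2.10e-12).

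The order of the 2 WNK kinases was opposite in the 2 kinds of sample. In each of the 3 whole kidney libraries Wnk1 was above Wnk4, and in each of the 12 tubules Wnk4 was above Wnk1, without overlap of their ranges in either. Wnk4 made up 37.6% ± 4.29 (SD, n = 3) of the sum of both in whole kidney and 77.2% ± 3.90 (SD, n = 12) in the tubules. The lowest tubule share, 70.8%, was that of m3 replicate 3, and the highest kidney share was 42.2%. The other WNK genes added little, since Wnk2 did not pass 0.71 TPM and Wnk3 did not pass 0.33 TPM in any tubule.

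Stk39 (ENSMUSG00000027030), which encodes the kinase SPAK, was at 19.5, 17.0 and 19.7 TPM in whole kidney. Its lowest, median and highest values in the tubules were 2.22, 3.52 and 5.59 TPM, the highest again in m3 replicate 3. The tubule mean of 3.53 ± 1.06 TPM (SD, n = 12) was 18.9% of the kidney mean, and without that library it was 3.34 ± 0.881 TPM. The log2 difference was -2.15 ± 0.20 (SE, limma adjusted p = 9.87e-08). Oxsr1, the gene of the sister kinase OSR1, was nearly level between the sample types, at 6.82 ± 0.906 TPM in the tubules and 8.97 ± 1.60 TPM in whole kidney, with ranges that overlapped. Its log2 difference of -0.34 passed the threshold (limma adjusted p = 0.0341) with the values as deposited, was -0.08 with median-of-ratios rescaling and was 0.30 with quantile normalization, where it did not pass. Stk39 made up 67.6% ± 5.07 (SD, n = 3) of the sum of both kinases in whole kidney and 33.6% ± 6.77 (SD, n = 12) in the tubules, where the highest share was 47.3% in m3 replicate 3 and 44.6% in the other tubules.

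**Figure D2:**
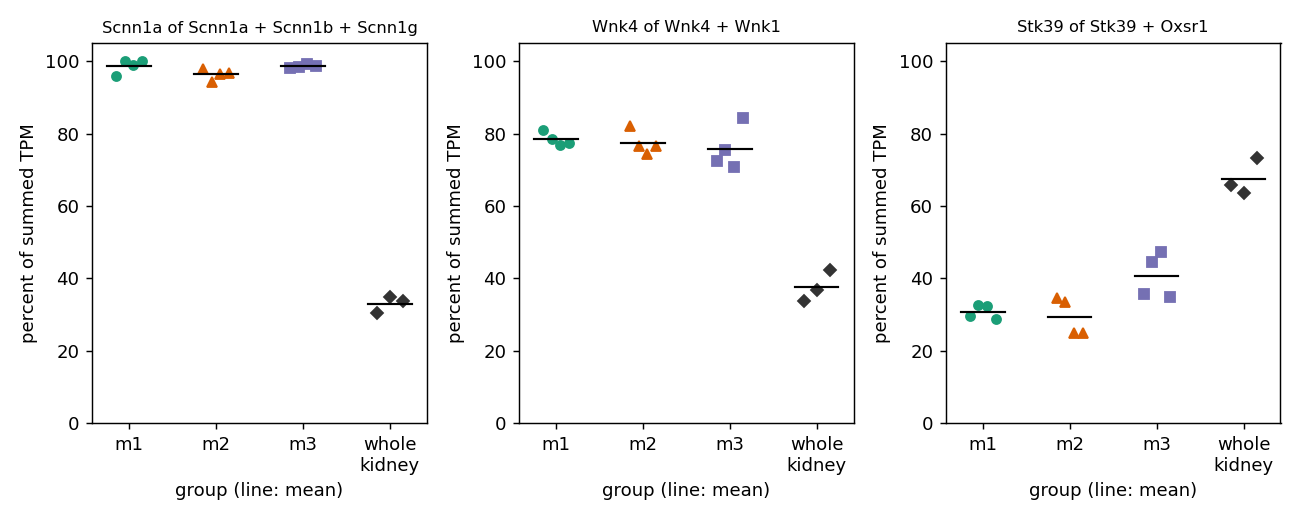
Share of Scnn1a in the summed TPM of the 3 ENaC genes, of Wnk4 in the sum of Wnk4 and Wnk1, and of Stk39 in the sum of Stk39 and Oxsr1, in percent, for each library by group, with the mean of the group as a line. The tubules of all 3 sets lie above whole kidney for Scnn1a and Wnk4 and below it for Stk39, without overlap.

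The 3 ENaC genes were near each other in whole kidney and far apart in the tubules. Scnn1a (ENSMUSG00000030340), the gene of the alpha subunit, was at 32.7, 37.1 and 33.9 TPM in whole kidney. In the tubules it was 0.90 TPM at the lowest, 3.90 at the median and 11.2 at the highest. Scnn1b (ENSMUSG00000030873), for the beta subunit, was at 38.2, 39.6 and 35.2 TPM in whole kidney, and in the tubules it was listed at 0 in 5 libraries and did not exceed 0.27 TPM. Scnn1g (ENSMUSG00000000216), for the gamma subunit, was at 36.0, 29.4 and 31.6 TPM in whole kidney and at no more than 0.09 TPM in any tubule, with 2 listed at 0. The kidney values of Scnn1a overlapped those of both other subunits, whereas in the tubules even the lowest Scnn1a value lay above the highest Scnn1b and Scnn1g values.

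As means, Scnn1a kept 12.8% of its kidney level in the tubules, Scnn1b 0.157% and Scnn1g 0.121%. Scnn1a accordingly made up 33.1% ± 2.28 (SD, n = 3) of the summed ENaC TPM in whole kidney and 97.9% ± 1.74 (SD, n = 12) in the tubules, where no share was below 94.3%. The log2 difference of Scnn1a was -2.89 ± 0.42 (SE, limma adjusted p = 2.36e-05). Without m3 replicate 3, where Scnn1a was highest, the tubule mean moved from 4.44 ± 2.88 to 3.82 ± 2.03 TPM. The log2 differences of Scnn1b and Scnn1g were -5.19 ± 0.11 and -5.00 ± 0.10 (SE, limma adjusted p = 7.50e-16 and 6.67e-16). Both entered the fit through their kidney values alone, so that a large difference was fixed by the filter. Scnn1b shares 39152 bases with Cog7 on the opposite strand, and the strand setting of the counting is not given in the sources used here. Cog7 averaged 40.5 TPM in the tubules while Scnn1b stayed near 0.

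Slc12a3 (ENSMUSG00000031766), the gene of NCC, was at 174, 182 and 181 TPM in whole kidney. Of the 12 tubules 2 listed it at 0, the median was 0.36 TPM and the highest value 0.51 TPM. The tubule mean was 0.164% of the kidney mean, and the log2 difference was -7.13 ± 0.14 (SE, limma adjusted p = 4.70e-16). Pvalb (ENSMUSG00000005716) encodes parvalbumin, a cytosolic calcium-binding protein of the early distal convoluted tubule. It was at 24.0, 24.6 and 23.7 TPM in whole kidney, was listed at 0 in 4 tubules and did not exceed 0.14 TPM. Its log2 difference was -4.60 ± 0.10 (SE, limma adjusted p = 7.94e-16). Trpm6 (ENSMUSG00000024727) encodes the apical magnesium channel of the distal convoluted tubule. It was at 3.97, 4.86 and 3.40 TPM in whole kidney and at no more than 0.04 TPM in any tubule, with 4 listed at 0. Its mean over all 15 libraries was under 1 TPM, so it was not tested. Slc12a3 and Pvalb passed that filter through whole kidney alone. In bulk RNA, fewer cells of a type and less RNA per cell cannot be told apart.

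In the tubule with thick ascending limb signal these distal convoluted tubule genes did not stand apart. Slc12a3 was at 0.37 TPM, Pvalb at 0.04 TPM and Trpm6 at 0.01 TPM in m3 replicate 3, each inside the range of the other tubules. The sum of 4 connecting tubule markers (Calb1, S100g, Trpv5 and Slc8a1) was 6.46 TPM in that library, between 2.28 and 9.18 TPM in the other 11 tubules and between 2085 and 2927 TPM in whole kidney, with Trpv5 listed at 0 in m3 replicate 3 and Slc8a1 at 0.13 TPM there, against at most 0.08 TPM in the other tubules. The 5 intercalated cell markers summed to 0.44 TPM in m3 replicate 3, the highest of the tubules, against at least 161 TPM in whole kidney. The 5 principal cell markers summed to 18.3 TPM in m3 replicate 3, inside the range of 9.09 to 59.2 TPM of the other tubules. Aqp3 made up most of that sum, and Avpr2 was at 1.62 TPM in m3 replicate 3 against at most 0.43 TPM in the other tubules.

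Klk1 (ENSMUSG00000063903) encodes tissue kallikrein, a serine protease that the connecting tubule secretes into urine and that can cleave ENaC. It was the most abundant of the 10 genes in whole kidney, at 3066, 2456 and 2864 TPM. In the tubules the lowest value was 0.72, the median 3.54 and the highest 189 TPM. The highest value was that of m3 replicate 3 and was 6.74% of the kidney mean. The next was 14.6 TPM in m1 replicate 4. The tubule mean was 20.1 ± 53.2 TPM (SD, n = 12) with m3 replicate 3 and 4.81 ± 4.60 TPM (SD, n = 11) without it. The log2 difference was -8.83 ± 1.03 (SE, limma adjusted p = 1.97e-06) with it and -9.29 without it. Klk1 has close relatives in the same gene cluster that can share reads, of which Klk1b5 was at 2.69 TPM on average in whole kidney and at no more than 0.09 TPM in any tubule.

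Klk1 varied between tubules together with genes of the thick ascending limb. After the mean of each set was subtracted, the 3 genes whose log2(TPM + 1) followed Klk1 most closely over the 12 tubules, out of 11300 genes compared, were Wfdc15b (Pearson r = 0.97), Egf (r = 0.96) and Slc12a1 (r = 0.95). Slc12a1 encodes the furosemide-sensitive cotransporter NKCC2 of the thick ascending limb, and Egf the epidermal growth factor made in the distal nephron. Without m3 replicate 3 these values were 0.90, 0.90 and 0.88 over 11 tubules, and r with Umod, the uromodulin gene, went from 0.95 to 0.85. The points share their dissection and total, and the highest r of so many genes is high by selection. The part of thick ascending limb cells in the Klk1 values was not tested.

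**Figure D3:**
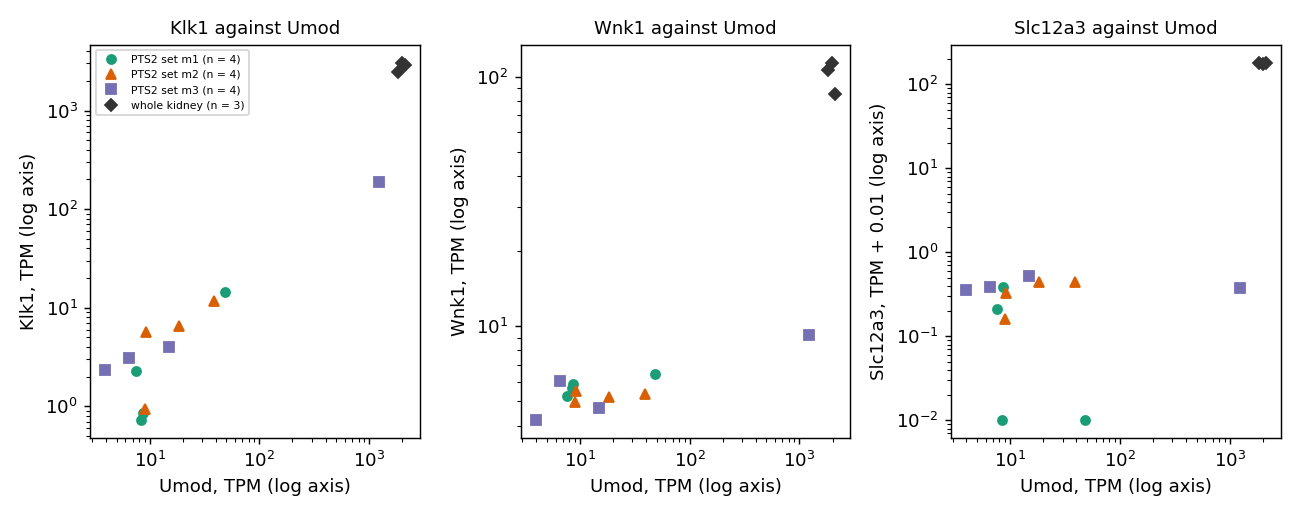
Klk1, Wnk1 and Slc12a3 plotted against Umod, a thick ascending limb marker, in TPM on log axes (Slc12a3 as TPM + 0.01), for 12 PTS2 tubules coloured by set and 3 whole kidney libraries. The 3 tubules with the most Umod have the 3 highest Klk1 values, Wnk1 is highest in the tubule with 1232 TPM of Umod, and Slc12a3 in that tubule is at 0.37 TPM.

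Wnk1 also tracked thick ascending limb genes, but mainly through 1 library. Its 2 closest genes were Gstm2 and Cldn19 (r = 0.93 each), of which Cldn19 encodes a tight junction protein of the loop of Henle. Without m3 replicate 3 both values were 0.71, and r with Umod fell from 0.87 to 0.38. The genes closest to Wnk4 were Gm17122, Snapc1 and Zfp668 (r = 0.94, 0.94 and 0.93), and r of Wnk4 with Umod was 0.21 over all tubules and -0.27 without m3 replicate 3. Those closest to Scnn1a were Ccdc28b, Nudt4 and Twsg1 (r = 0.96, 0.94 and 0.94), and those closest to Stk39 were Polr3f, Mxd4 and Mettl9 (r = 0.90, 0.90 and 0.89). For Scnn1a and Stk39 the values for these genes were between 0.88 and 0.97 without m3 replicate 3. These correlations are descriptions over tubules.

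The sequence just upstream of 4 of these genes is shown because they mark the ends of the range, with Wnk4 kept in the tubules and Slc12a3, Scnn1b and Scnn1g close to 0 there. The sequences are from RefSeq (GRCm38.p6, plus strand, written 5′ to 3′) and end at the base before the first annotated start of the gene. The windows are chr11:101260317-101260536 for Wnk4 (220 bases), chr8:94328958-94329108 for Slc12a3 (151 bases), chr7:121864788-121865037 for Scnn1b (250 bases) and chr7:121734229-121734419 for Scnn1g (191 bases). Of the 10 genes, 9 had a window in the RefSeq table, the exception being Scnn1a. Capitals mark the GC box GGGCGG on either strand, the site of Sp1-type factors.
Wnk4: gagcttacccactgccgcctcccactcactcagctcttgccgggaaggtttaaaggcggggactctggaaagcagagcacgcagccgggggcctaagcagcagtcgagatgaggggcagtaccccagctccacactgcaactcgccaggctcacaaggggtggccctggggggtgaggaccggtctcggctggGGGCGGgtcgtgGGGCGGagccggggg
Slc12a3: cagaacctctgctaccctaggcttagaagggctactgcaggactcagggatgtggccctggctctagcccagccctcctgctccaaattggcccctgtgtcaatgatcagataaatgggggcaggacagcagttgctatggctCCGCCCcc
Scnn1b: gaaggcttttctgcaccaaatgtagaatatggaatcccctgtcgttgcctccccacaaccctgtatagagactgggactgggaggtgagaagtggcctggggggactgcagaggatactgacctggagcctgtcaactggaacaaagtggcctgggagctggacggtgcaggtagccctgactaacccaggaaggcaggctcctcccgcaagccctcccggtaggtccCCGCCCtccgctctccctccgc
Scnn1g: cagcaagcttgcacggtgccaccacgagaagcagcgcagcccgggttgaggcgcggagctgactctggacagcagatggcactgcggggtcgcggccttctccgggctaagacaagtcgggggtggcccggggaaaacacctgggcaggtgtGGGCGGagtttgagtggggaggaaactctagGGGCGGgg

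All 4 windows held the GC box, with 2 matches in Wnk4, 1 in Slc12a3, 1 in Scnn1b and 2 in Scnn1g. Of 32851 promoter windows, each cut to its first bases at the same length, 28.5%, 16.8%, 32.7% and 23.1% held it. Windows cut in this way need not end at a start site, as those of the 4 genes do, so these shares are not matched for position. Neither the steroid receptor half-site AGAACA nor the HNF1 half-site GTTAAT, each searched on both strands, was found in any of the 4 windows. With the same cut AGAACA was held by 10.3% to 16.1% of all windows and GTTAAT by 4.05% to 6.43%. The GC content was 68.2% for Wnk4, 58.9% for Slc12a3, 60.8% for Scnn1b and 67.0% for Scnn1g. Scnn1g (chr7:121734479-121768475) and Scnn1b (chr7:121865038-121918514) lie on the same strand, 96.6 kilobases apart, per the GENCODE M21 annotation of GRCm38. The deposited table gives no measure of start site use or factor binding, so the windows are described only.

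Among the 3 sets of tubules, none of the 5 members with a tubule mean of 1 TPM or more (Scnn1a, Klk1, Wnk1, Wnk4 and Stk39) passed the test. The limma F test called 3.02% of 11300 genes and 0 of these 5, and 0 of the 5 had an unadjusted p under 0.05. Pair by pair, 0.54% of genes were called between m2 and m1, 3.17% between m3 and m1 and 1.97% between m3 and m2, and again 0 of the 5 members. In set m1 Scnn1a was at 5.22, 1.32, 2.77 and 0.90 TPM, in set m2 at 6.70, 4.95, 2.40 and 2.84 TPM, and in set m3 at 6.00, 6.06, 11.2 and 2.84 TPM, given for numbers 1 to 4. The sets overlapped, with means of 2.55 ± 1.95, 4.22 ± 1.99 and 6.53 ± 3.47 TPM (SD, n = 4 each; limma adjusted p = 0.309). The log2 difference of Scnn1a between m3 and m1 was 1.12 ± 0.41 (SE), and that of Stk39 was 0.40 ± 0.20 (limma adjusted p = 0.168 and 0.303). Both genes were highest in m3 replicate 3, so both differences rest in part on that library. Without it the limma F test gave adjusted p = 0.502 for Scnn1a and 0.620 for Stk39, against 0.309 and 0.374 with it. For Wnk4 and Wnk1 the differences between m3 and m1 were -0.20 ± 0.18 and 0.00 ± 0.18 (SE). Sgk1, the aldosterone-induced kinase that protects ENaC from removal, did differ between sets, with 143 to 231 TPM in m1 and 13.3 to 19.0 TPM in m3 (limma adjusted p = 2.68e-07).

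The replicate numbers were compared as a second grouping, with the set as a term. The limma F test called 2.71% of 11300 genes and 0 of the 5 members, of which 1, Scnn1a, had an unadjusted p under 0.05. Scnn1a was between 5.22 and 6.70 TPM in the 3 tubules numbered 1 and between 0.90 and 2.84 TPM in the 3 numbered 4, so these tubules did not overlap, as was so in this direction for 13.1% of the 11300 genes. The log2 difference of number 4 from number 1 was -1.19 ± 0.36 (SE) and did not pass adjustment (limma adjusted p = 0.105), in a contrast that called 4.76% of genes (538). It passed, at adjusted p = 0.0374, when m2 replicate 3 was left out. Wnk4, Wnk1 and Stk39 had differences of -0.10 ± 0.20, -0.15 ± 0.21 and -0.26 ± 0.21 (SE) in the same contrast. St14, the gene of matriptase, a membrane protease that can act on ENaC, was lower in number 4 and passed, with a log2 difference of -1.39 (limma adjusted p = 0.00877). It was at 7.33 to 11.3 TPM in the tubules numbered 1 and at 2.30 to 3.30 TPM in those numbered 4. Of the 8 genes of proteases and inhibitors that can act on ENaC and were tested, the limma F test over numbers called only St14. Of the 5 principal cell markers, Aqp3 was higher in number 4 (log2 difference 1.36, limma adjusted p = 0.00543). Aqp2 and Fxyd4 did not pass (log2 difference 0.39 and 0.98, limma adjusted p = 0.857 and 0.0824). Hsd11b2 and Avpr2 were too low in the tubules to be tested. Of the 6 proximal tubule markers, Slc34a1 and Slc22a6 were higher (log2 difference 0.81 and 1.07, limma adjusted p = 0.00499 and 0.00335), Slc7a13 was lower (-0.31, limma adjusted p = 0.0275), and Lrp2, Cubn and Slc27a2 did not pass. The part of these markers in the Scnn1a and St14 values was not tested.

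**Figure D4:**
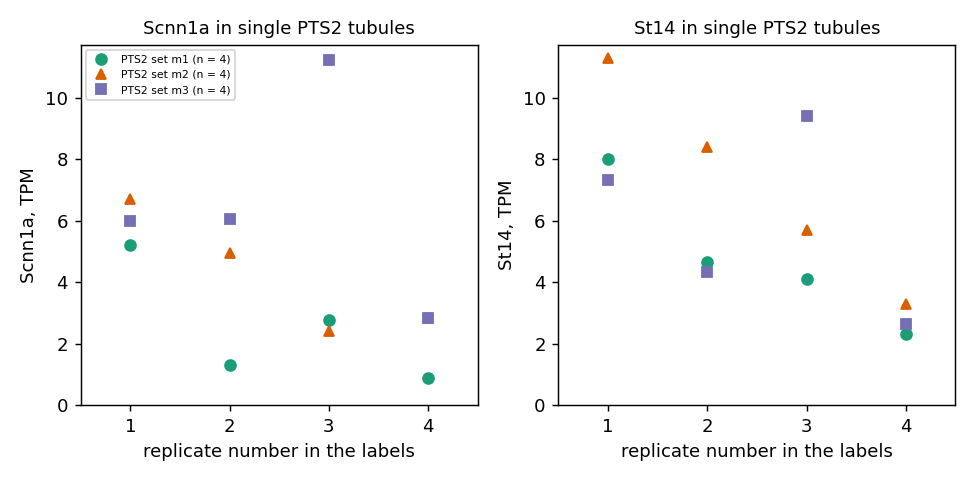
TPM of Scnn1a and St14 in the 12 single PTS2 tubules by the replicate number in the labels, coloured by set. For both genes the 3 tubules numbered 4 lie below the 3 numbered 1, and for Scnn1a the values of m2 and m3 coincide at number 4, at 2.84 TPM.

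The genes around the members were taken from 7 lists of their pathway partners, and their counts depended on scaling, as did those of all genes. Of 12039 genes tested 51.2% were called, 41.5% lower and 9.68% higher in tubules, so that 18.9% of the calls were higher. With median-of-ratios rescaling 49.7% of the calls were higher and with quantile normalization 64.7%. These calls were 2860 lower and 2828 higher with the former, and 2273 lower and 4164 higher with the latter. The median over all genes moved from -0.27 to 0.00 and 0.16. No member changed direction or lost its call under these scalings, which kept Wnk4 at -1.32 and -1.41.

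Of 13 further genes of the WNK and SPAK cascade and of the basolateral channels that act on it, 9 were tested, and 8 were lower and 1 higher in tubules, with a median log2 difference of -0.42. Under median-of-ratios rescaling 4 were lower and 1 higher, and under quantile normalization 6 and 1. The lower genes include Bsnd, which passed the filter through whole kidney alone, so its direction was fixed. Cab39, the gene of the SPAK scaffold MO25, was at 39.3 ± 5.62 TPM in tubules and 56.6 ± 0.561 TPM in whole kidney (log2 difference -0.53, limma adjusted p = 0.00139). Kcnj16, for a subunit of the basolateral potassium channel, was at 219 ± 27.8 TPM and 292 ± 23.9 TPM (log2 difference -0.42). The difference was -0.13 and not past the threshold with median-of-ratios rescaling, and -0.48 and past it with quantile normalization (limma adjusted p = 0.00159). Its partner Kcnj10 did not exceed 0.28 TPM in any tubule and averaged 2.71 TPM in whole kidney. Klhl3, the adaptor by which WNK kinases are degraded, did not exceed 0.52 TPM in tubules and averaged 1.38 TPM in whole kidney. Clcn2, a chloride channel gene, was higher in tubules, at 19.2 ± 3.32 TPM against 13.9 ± 1.37 TPM (log2 difference 0.42, limma adjusted p = 0.0313). Bsnd and Ppp1r1a, which the thick ascending limb also uses, had log2 differences of -4.89 and -6.31, or -5.17 and -6.75 without m3 replicate 3. In m3 replicate 3 they reached 10.2 and 56.1 TPM, where no other tubule passed 0.67 and 1.85 TPM.

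Of 6 further cation-chloride cotransporters that SPAK and OSR1 act on, 5 were tested and 4 were lower, or 3 without m3 replicate 3. With median-of-ratios rescaling 3 were lower, and with quantile normalization 2. The lower genes include Slc12a4, which passed the filter through whole kidney alone, so its direction was fixed. Slc12a1 was at 334 ± 26.9 TPM in whole kidney, at 151 TPM in m3 replicate 3 and at no more than 4.62 TPM in the other tubules. Slc12a4 (KCC1) averaged 0.983 TPM in tubules and 8.79 TPM in whole kidney (log2 difference -2.34).

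Of 13 genes through which aldosterone and its relatives act on ENaC, all 13 were tested, 9 were lower and 0 higher, with a median log2 difference of -0.59. Under median-of-ratios rescaling 5 were lower and 2 higher, and under quantile normalization 6 and 2. The lower genes include Hsd11b2 and Nr3c2, which passed the filter through whole kidney alone, so their direction was fixed. Hsd11b2, the enzyme that shields the mineralocorticoid receptor from glucocorticoids, did not exceed 0.49 TPM in any tubule and averaged 87.8 TPM in whole kidney (log2 difference -6.26, limma adjusted p = 1.96e-15). Nr3c2, the mineralocorticoid receptor gene, was between 0.03 and 1.35 TPM in tubules and averaged 4.11 TPM in whole kidney. Nr3c1, the glucocorticoid receptor gene, was at 15.8 ± 3.15 TPM and 31.9 ± 2.55 TPM (log2 difference -0.99). The ENaC ubiquitin ligase gene Nedd4l was at 17.4 ± 4.81 TPM in tubules and 16.1 ± 1.49 TPM in whole kidney (log2 difference 0.07 ± 0.22, SE, limma adjusted p = 0.823), and was called higher, at 0.54, with quantile normalization (limma adjusted p = 0.0173).

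Of 9 genes of proteases and inhibitors that can act on ENaC, 8 were tested, and 5 were lower and 2 higher. Under median-of-ratios rescaling the counts were 4 and 3, and under quantile normalization 4 and 1. Prss8, the gene of the channel-activating protease prostasin, was at 388 ± 69.2 TPM in tubules and 296 ± 31.7 TPM in whole kidney. Its log2 difference of 0.38 passed (limma adjusted p = 0.0311), but with quantile normalization, at 0.30, it did not. St14, whose product acts in the same protease cascade as prostasin, was at 5.95 ± 2.88 TPM in tubules and 31.3 ± 2.70 TPM in whole kidney (log2 difference -2.33). Spint2, an inhibitor of both, was at 373 ± 31.1 TPM and 384 ± 13.5 TPM. Its log2 difference was -0.05 (limma adjusted p = 0.643), and it was called higher, at 0.25, with median-of-ratios rescaling (limma adjusted p = 0.0232).

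Of 11 further genes of magnesium handling, 9 were tested, 5 were lower and 0 higher. Under median-of-ratios rescaling 2 were lower, and under quantile normalization 4 were lower and 2 higher. Trpm7, the widely expressed relative of Trpm6, was at 25.3 ± 3.78 TPM in tubules and 43.0 ± 1.13 TPM in whole kidney, and its log2 difference of -0.75 kept its call under both rescalings. Tubules thus held far more Trpm7 than Trpm6. Egf, which raises Trpm6 activity, was at 604 ± 24.0 TPM in whole kidney, at 339 TPM in m3 replicate 3 and at no more than 16.7 TPM in the other tubules. Of 10 genes of the kallikrein and kinin system, 7 had a mean under 1 TPM and 3 were tested. Kng2, a kininogen gene, was lower in tubules (log2 difference -1.42), and Ace, which degrades kinins, was higher, at 72.9 ± 15.8 TPM against 38.0 ± 2.40 TPM (log2 difference 0.90, limma adjusted p = 0.000321). Mme, the other gene tested, did not pass (log2 difference 0.44, limma adjusted p = 0.199). It was called higher with median-of-ratios rescaling (0.73, limma adjusted p = 0.0276) and quantile normalization (0.65, limma adjusted p = 0.0430). Under each of these rescalings 1 gene was lower and 2 higher.

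Of 9 genes of proximal sodium entry, given for comparison, all 9 were tested, with 6 lower and 2 higher. Under quantile normalization 7 were lower. The 6 lower included Slc5a2, which averaged 0.70 TPM in tubules and 621 TPM in whole kidney, and Slc34a3, at 0.34 and 68.2 TPM. Slc9a3, the gene of the apical sodium-proton exchanger NHE3, was at 7.84 ± 3.65 TPM in tubules and 27.4 ± 3.33 TPM in whole kidney (log2 difference -1.78, limma adjusted p = 0.000290). Slc9a3r1 and Pdzk1 were the 2 called higher (log2 difference 0.52 and 0.42, limma adjusted p = 4.93e-05 and 0.000157). Slc34a1 did not pass (log2 difference -0.49, limma adjusted p = 0.0788), but was called lower with quantile normalization (-0.68, limma adjusted p = 0.0127). Among the genes of these lists named here, Hsd11b2, Nr3c2, Bsnd, Slc12a4, Slc5a2 and Slc34a3 passed the filter through whole kidney alone. For these genes a lower level in tubules was fixed by the filter, and the counts of lower genes in their lists include them.

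In order of mean level, whole kidney ran Klk1, Slc12a3, Wnk1, Wnk4, Scnn1b, Scnn1a, Scnn1g, Pvalb, Stk39 and Trpm6. The neighbours whose libraries overlapped in that order were Scnn1b with Scnn1a and Scnn1a with Scnn1g. In the tubules the order by median was Wnk4, Wnk1, Scnn1a, Klk1, Stk39, Slc12a3, Scnn1g, Pvalb, Scnn1b and Trpm6. There the range of Wnk4 lay clear of that of Wnk1, that of Klk1 overlapped the ranges of Wnk4, Wnk1, Scnn1a and Stk39, and the lowest Stk39 value lay above the highest Slc12a3 value. Wnk1 and Scnn1a overlapped, with Wnk1 the higher in 9 of 12 tubules, as did Scnn1a and Stk39, with Scnn1a the higher in 9 of 12, and the 5 genes at or under 0.51 TPM overlapped one another.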

How the data were processed

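RNA-Seq libraries of 12 single PTS2 tubules and 3 whole kidneys were analysed, grouped by their description labels. Per the labels' protocols, polyA RNA was amplified to cDNA with the SMART-Seq V4 kit. The submitters' processing notes name STAR 2.5.1b, RSEM 1.2.31 and the build GRCm38.p5, and the annotation release is not given in the sources used here. The authors deposited TPM to 2 decimals, which keep no depth. That they are TPM was read from the values, since each column sums to 1000000 apart from rounding. No columns were identical.

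The tool limma 3.58.1 (R 4.3.3, eBayes with trend) tested differences in log2(TPM + 1) over genes whose mean was 1 TPM or more, two-sided, with Benjamini-Hochberg adjustment over all genes tested and a threshold of 0.05. For tubules against whole kidney, each set was a correlated block (estimated correlation 0.0669), and each kidney its own block. Sets were compared by an F test over 12 tubules, and replicate numbers likewise with set as a term. Since the labels do not say that tubules of a set came from separate animals, p-values measure the spread between these libraries, which may be technical. The fits were tested on simulated data. Figures and sums used Python 3.11.15 (pandas 2.3.3, matplotlib 3.10.9).

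The members, the 7 pathway lists and 9 marker lists were chosen with earlier results of these data known. Genes named were the members, list genes, and for each member with a tubule mean of at least 1 TPM the 3 genes with the highest r over the tubules. Some genes that this rule names are not reported here. Alternatives were a pseudocount of 0.1, no filter, a mean of at least 10 TPM, 2 rescalings, the replicate number as a block, other treatments of the set, and each library left out. Correlations, tubule means and list counts without m3 replicate 3 were chosen after seeing the data.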

Additional observations from a re-analysis of the deposited data

Results flagged for a closer look

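For each of the 10 genes and each set of 4 tubules, Dixon's test asked whether the tubule at either end lay far from the rest. It picked out 4 of 30 such groups. Chance picks out about 1 in 20 groups of normally distributed values, a rate that does not hold where values are skewed or listed at 0. Klk1 was at 188.51 TPM in m3 replicate 3, with the next library of the set at 4.00 TPM, and at 14.58 TPM in m1 replicate 4, with the next at 2.28 TPM. The thick ascending limb markers summed to 1441 TPM and 55.8 TPM in these libraries, the highest values of the 12 tubules, and their part in the Klk1 values was not tested. Scnn1b was at 0.15 TPM in m1 replicate 1, and Pvalb was at 0.08 TPM in m1 replicate 2, while the rest of set m1 listed these genes at 0.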

How the results depend on the processing

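The differences between tubules and whole kidney of the 5 members with a tubule mean of 1 TPM or more kept their direction and stayed past the threshold in each alternative that tested them. The range was -1.65 to -1.32 for Wnk4, -4.15 to -3.66 for Wnk1, -3.22 to -2.52 for Scnn1a, -2.42 to -1.66 for Stk39 and -9.26 to -8.55 for Klk1, outside the fits with a library left out. A mean of at least 10 TPM removed Stk39 from the test. With no filter, Trpm6 was tested and had a log2 difference of -2.31 (limma adjusted p = 6.80e-13). Of 12039 genes 6161 were called, against 3113 of 6737 at a mean of at least 10 TPM and 9399 of 30969 with no filter. The fits with a library left out called 4761 to 6712. The sets gave 341 calls of 11300 genes, 196 of 30134 with no filter and 197 to 563 with a library left out. The last moved past 1.5 times without m1 replicate 1, m2 replicate 2, or m3 replicate 1, 2 or 3 (563, 220, 197, 226 and 209). The replicate numbers gave 306 calls, and 0 both with no filter and with no set term, where limma gave 2871 and 1419 genes an unadjusted p under 0.05. With a library left out they gave 75 to 507. They moved past 1.5 times without m1 replicate 1 or 4 (151 and 75), m2 replicate 1, 2 or 4 (108, 507 and 153), or m3 replicate 1, 2 or 4 (182, 201 and 110). The contrast of number 4 with number 1 gave 538 calls, 175 with no filter, 67 with no set term and 249 to 757 with a library left out, past 1.5 times away without m1 replicate 1 or 4 (262 and 256), m2 replicate 1 or 4 (249 and 347) or m3 replicate 1 (339). No F test of a member passed in any of these fits. Scnn1a between numbers 4 and 1 passed in 1 of them, without m2 replicate 3.

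With the replicate number as a block, the sets gave 888 calls, and no member passed (Scnn1a adjusted p = 0.113). Same-numbered tubules of different sets had r of 0.0254 to 0.273 in their deviations from the set means, above 0.1 in 7 of 12 pairs with a mean of 0.143. Pairs with other numbers had a mean of -0.0481 and 2 of 36 above 0.1. Because the deviations within a set sum to 0, a mean above 0 for same-numbered pairs pushes that of the others below 0. The 2 means are therefore not separate observations. Of 12 tubules, 10 correlated best with their own number. Since not every same-numbered pair was above 0.1 and the labels name no shared source, the fits of the sets were reported without the block. No depth is known, so that values near 0 TPM have no lower limit of detection.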
